A study of Mus musculus with 6 samples.

Results

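The enzymes of phase I drug metabolism were examined in the spleen, as 101 genes of cytochromes P450 (Cyp), flavin-containing monooxygenases (Fmo), aldehyde dehydrogenases (Aldh), epoxide hydrolases (Ephx) and quinone reductases (Nqo). They were chosen by gene symbol among the probe sets that the array annotation gives to a single gene, with Cyp51 and Fmo2 left out by the same rule. The 101 genes were read by 144 probe sets, of 45037 on the array and of 34945 that carry 1 gene name, and 6 further probe sets that carry several gene names were left out. All mice were male C57BL/6J, 8 weeks old at the start, and carried no transgene or deletion that the labels name. For 15 weeks the 3 control mice ate a special diet with 4% cellulose, and the 3 garlic-fed mice ate the same special diet with 4% lyophilized raw garlic powder instead. The whole spleen of each mouse was measured on 1 Affymetrix array, so each value below belongs to 1 mouse, and the number of arrays limits the precision. The question put to the arrays here was which of these enzymes are expressed in spleen and whether their mRNA differed between the diets.

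Phase I enzymes add or uncover a reactive group on a foreign or internal molecule, by oxidation, reduction or hydrolysis, and conjugating enzymes then act on that group. The liver holds most of this activity. Many of the same families also make or clear internal signals such as retinoic acid, oxysterols, steroid hormones, vitamin D and eicosanoids, and those members are found in many other tissues, among them the spleen. Cyp1 genes are classic targets of the aryl hydrocarbon receptor Ahr, and Nqo1 is a classic target of the transcription factor Nrf2, encoded by Nfe2l2.

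A probe set is a group of short oligonucleotides complementary to 1 mRNA, and the signal is the brightness of the RNA bound to it, summarized by the authors with MAS5 on a linear scale. Signals under a floor of 23.5 were raised to it before log2 was taken, and the groups were compared with limma, a linear model that shares the spread between mice across probe sets. Tests were run on the 27022 probe sets whose mean log2 signal exceeded 6.08, and p-values were adjusted over all of them by the Benjamini-Hochberg method. A fold change is given as log2 of garlic over control, and means are given ± SD with n = 3. Where several probe sets read a gene, the brightest on average on the log2 scale is given. The median signal of all probe sets lay between 119.7 and 132.2 on the 6 arrays. To check the labeled organ, markers of B cells, T cells and red pulp macrophages were summed, and they were bright on every array, with summed signals of 37751 to 45565, 7730 to 9189 and 54321 to 68530. Other cell types varied widely between mice. The summed signal of 11 pancreatic genes was 133632, 17459 and 62847 in controls and 2115, 34697 and 2364 after garlic. That of 7 hepatocyte genes was 2468, 879 and 7093 in controls and 549, 9210 and 1422 after garlic. In whole spleen, fewer cells of a type and less RNA per cell cannot be told apart.

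As no detection calls were used, the signals of 44 probe sets of olfactory receptor genes, a family expressed mainly in the nose, served as a reference for unspecific binding. Their 95th percentile was a signal of 70.0, and 3 of the 44 lay above it. Of the 101 phase I genes, 46 lay above this reference level on average, or 45.5%, against 66.9% of all genes on the array. All 46 were necessarily also bright enough to be tested, as the reference level, 6.13 in log2, lies above the filter of 6.08. On each of the 6 arrays singly, 34 genes were above that array's own reference level. The other 55 genes were at or under the reference, and 4 of them, Cyp3a16, Cyp2d12, Cyp4f14 and Cyp17a1, were at or under the floor in every mouse. The reference is set against the mean of the 6 arrays, so a gene under it is not shown to be absent, and some were above it in single mice.

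The families differed in how many of their members were above the reference. All 4 genes of the Aldh1a group, which holds the retinaldehyde dehydrogenases, both quinone reductases and 13 of 16 other aldehyde dehydrogenases were above it. So were 2 of 3 flavin-containing monooxygenases, 2 of 4 epoxide hydrolases and 6 of 11 P450 genes of sterol and steroid metabolism. Of 18 P450 genes of fatty acid and eicosanoid metabolism 5 were above it, all 5 of them on every array. The large Cyp2 and Cyp3 families, which include most of the drug-metabolizing P450s of liver, had 8 of 34 genes above the reference and 3 on every array. The members of several subfamilies lie together on 1 chromosome. Of those with 2 genes, all Aldh3a and Aldh3b genes were above the reference, and 0 of the Cyp1a and Cyp11b genes were. In the P450 subfamilies with 3 or more genes on 1 chromosome, most genes were dim. On chromosome 19, 3 of 11 Cyp2c genes were above the reference, on chromosome 15, 2 of 8 Cyp2d genes, on chromosome 5, 1 of 5 Cyp3a genes, on chromosome 4, 0 of 5 Cyp2j genes and 0 of 3 Cyp4a genes, and on chromosome 7, 0 of 4 Cyp2b genes. Probe sets of such close relatives can bind each other's mRNA, so their single values are uncertain.

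**Figure D1:**
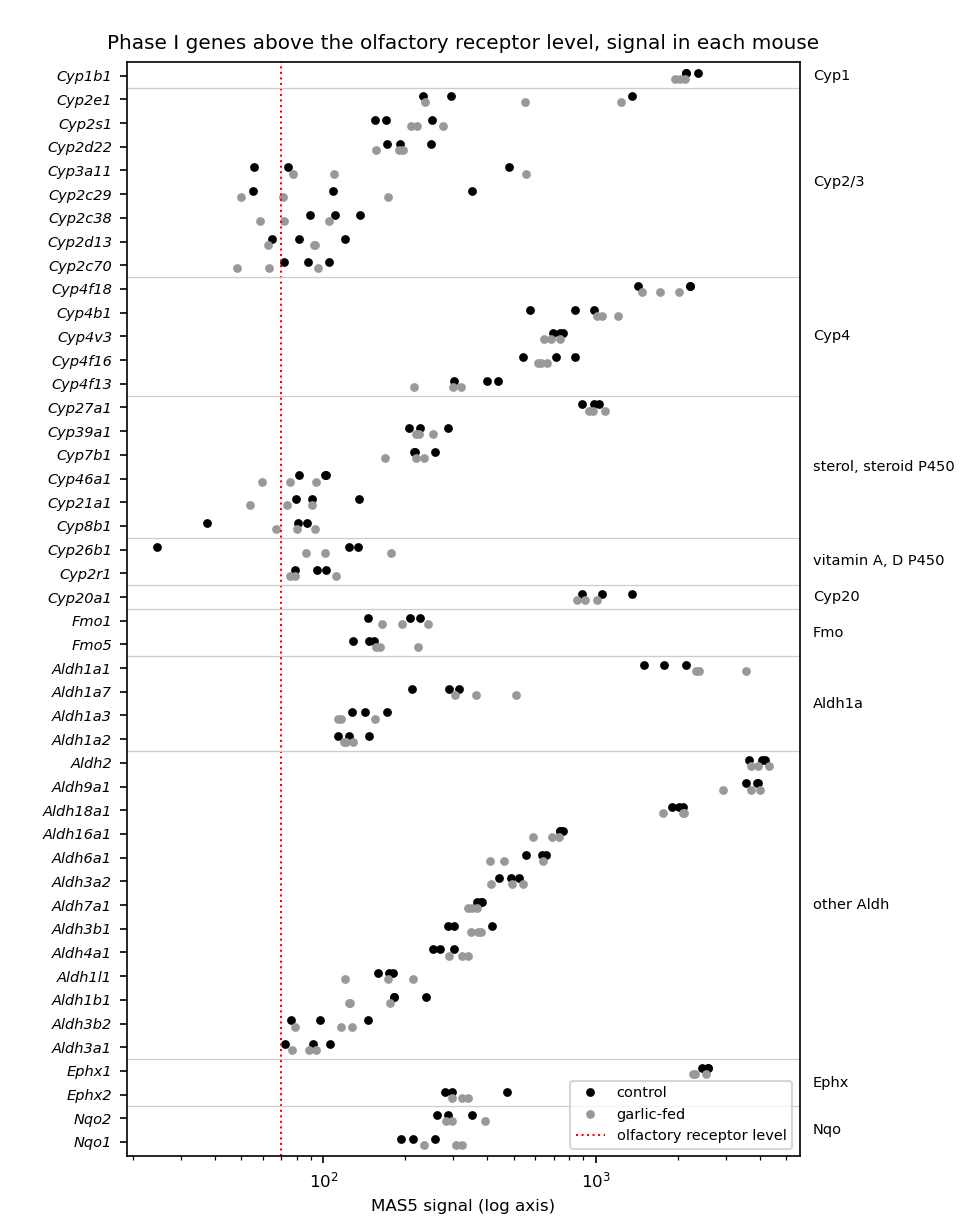
MAS5 signal (log axis) of the 46 phase I genes above the olfactory receptor reference level, 1 point for each mouse, with control mice in black and garlic-fed mice in gray and the reference of 70.0 as a dotted line. The groups overlap for all but Cyp1b1, Cyp4b1, Fmo5, Aldh1a1, Aldh16a1 and Aldh1b1, while Cyp2e1, Cyp3a11 and Cyp2c29 spread widely within both groups.

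No phase I probe set examined here differed between garlic-fed and control mice at an adjusted p under 0.05. Cyp51 and Fmo2 are outside these and all later counts, and the study reported Fmo2 mRNA as induced by garlic. Of the 67 probe sets tested, 0 were higher and 0 were lower in limma, where over all probe sets 0.226% were higher and 0.0111% were lower, and the smallest adjusted p among the phase I probe sets was 0.229. By the study's criterion of a fold above 1.8 with an unadjusted p under 0.05, here taken from limma and mirrored for lower signals, 0 were higher and 0 were lower, against 0.921% and 0.596% of all probe sets. At an unadjusted p under 0.05, 3 were higher (4.48%, against 5.58% of all) and 1 was lower (1.49%, against 5.44% of all). The 3 were those of Aldh1a1, Aldh1a7 and Cyp4b1 and the 1 was that of Aldh1b1. The methods' one-way comparison on the same log2 signals gave 0 of the 67 phase I probe sets at an unadjusted p under 0.05. Over all 27022 probe sets tested it gave 2548. The signals of the 2 groups did not overlap for 3 probe sets that were higher in garlic-fed mice, those of Aldh1a1, Cyp4b1 and Fmo5 (4.48%, against 7.52% of all), and for 3 that were lower, those of Cyp1b1, Aldh16a1 and Aldh1b1 (4.48%, against 9.29% of all).

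The differences were small for most of the genes. The log2 fold changes of the 46 genes ran from -0.59 for Cyp2c29 to 0.64 for Cyp26b1, and 25 of them were within 0.2 of 0. The median was -0.06, against -0.03 over the 12262 genes tested. When each array was centred on its own median, it was 0.015, against 0.05 over all genes tested. A positive log2 fold change was found for 17 genes, or 37.0%, against 44.2% of all genes. For 32 genes the 95% interval of the log2 fold change lay within a 1.8-fold difference in either direction, so a difference of that size was outside the interval. For the other 14 it reached 1.8-fold, among them the P450 genes with a wide spread. The median distance from the estimate to the end of the interval was 0.46 on the log2 scale.

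**Figure D2:**
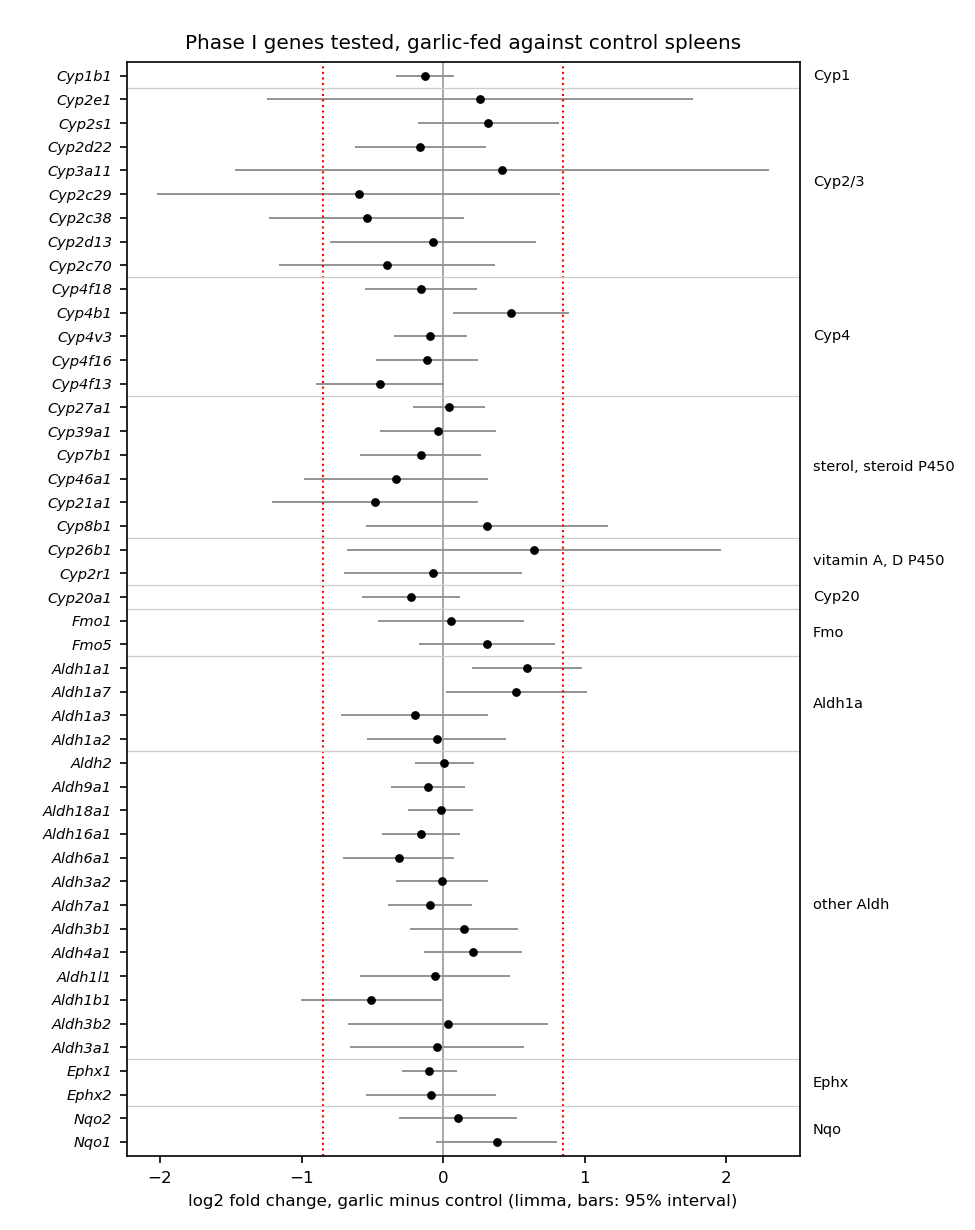
Log2 fold change (garlic minus control, limma) of the 46 phase I genes tested, with bars for the 95% interval and dotted lines at a 1.8-fold difference. The intervals of Cyp4b1, Aldh1a1 and Aldh1a7 lie above 0 and that of Aldh1b1 lies below 0 before adjustment, and those of Cyp2e1 and Cyp3a11 span both dotted lines.

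Among the Cyp1 genes, which oxidize polycyclic aromatic hydrocarbons and estrogens, only Cyp1b1 was above the reference. Its signal was 2147, 2369 and 2151 in controls and 1946, 2043 and 2115 after garlic. The garlic-fed mice were all lower, by a small step, with 2222 ± 127 (SD, n = 3) in controls and 2034 ± 85.2 (SD, n = 3) after garlic. Its log2 fold change was -0.13 with a standard error of 0.09 and a 95% interval of -0.33 to 0.08, which did not pass the test (adjusted p = 0.675, limma). The other tested probe set of Cyp1b1 gave 939, 1127 and 1150 in controls and 1060, 885 and 1170 after garlic. There the groups overlap, with a log2 fold change of -0.05. Cyp1a1, the P450 most often used as a readout of Ahr activity, gave 73.8, 13.5 and 44.0 in controls and 55.2, 38.5 and 45.8 after garlic. Cyp1a2, its liver relative, gave 23.8, 36.9 and 60.9 in controls and 10.3, 50.7 and 37.7 after garlic. Both were under the reference on average and were not tested, and their groups overlap.

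Since Cyp1a1 and Cyp1b1 share a regulator but only 1 of them was above the reference, their promoters are shown, as RefSeq gives them on GRCm38.p6 from 250 bases before to 50 bases after the start of transcription. The Cyp1a1 window is chr9:57697363-57697662 on the + strand and the Cyp1b1 window is chr17:79715012-79715311 on the - strand. Capitals mark the core of the xenobiotic response element bound by Ahr, GCGTG, searched on both strands. It starts 54 bases before the start of Cyp1a1, and in Cyp1b1 it begins 76 bases before the start and lies on the opposite strand, so that it reads CACGC.
Cyp1a1: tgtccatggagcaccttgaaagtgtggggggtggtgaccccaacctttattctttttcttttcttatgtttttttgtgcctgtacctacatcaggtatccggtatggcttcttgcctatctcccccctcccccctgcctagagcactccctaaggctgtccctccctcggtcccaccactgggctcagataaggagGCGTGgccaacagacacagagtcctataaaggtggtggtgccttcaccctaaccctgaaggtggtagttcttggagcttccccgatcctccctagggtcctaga
Cyp1b1: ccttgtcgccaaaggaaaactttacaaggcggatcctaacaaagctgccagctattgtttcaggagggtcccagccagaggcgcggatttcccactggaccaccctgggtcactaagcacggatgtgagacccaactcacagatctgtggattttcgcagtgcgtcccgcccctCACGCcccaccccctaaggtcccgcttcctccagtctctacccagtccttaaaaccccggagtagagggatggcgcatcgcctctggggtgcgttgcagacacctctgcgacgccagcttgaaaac
Each window held 1 match, and bases outside the windows were not searched. Among 83 promoter windows of 72 phase I genes, 27.7% held GCGTG, against 32.4% of all 32851 windows, and 9.64% held TGACNNNGC, the core of the antioxidant response element bound by Nrf2, against 12.4% of all. A match is a run of letters and not a measured binding site.

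Of the Cyp2 and Cyp3 genes, Cyp2e1, Cyp2s1 and Cyp2d22 were above the reference in every mouse. Cyp2e1, which oxidizes ethanol and small solvents and also garlic's diallyl sulfide, gave 233, 294 and 1361 in controls and 550, 1232 and 236 after garlic. In all, 1 control and 1 garlic-fed mouse were far above the others, and the means of 629 ± 635 and 673 ± 509 (SD, n = 3 each) were within their spread. Garlic over control came to 0.26 in log2 with an interval of -1.24 to 1.77 (adjusted p = 0.929, limma), too wide to place it on either side of 0, and it ranged from -0.81 to 1.055 over the alternatives tried. Cyp2s1, a P450 expressed outside the liver, gave 191 ± 51 in controls and 235 ± 35.5 after garlic, with overlap and a log2 fold change of 0.32 (adjusted p = 0.662). Cyp2d22 gave 203 ± 39.7 and 181 ± 21.9, also with overlap (log2 fold change -0.16, adjusted p = 0.843).

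The other Cyp2 and Cyp3 genes above the reference were so in some mice only, and of these Cyp2c38, Cyp2d13 and Cyp2c70 stayed between 48.1 and 136 in all mice. Cyp3a11, a major P450 of liver, gave 73.9, 55.8 and 479 in controls and 77.7, 553 and 109 after garlic. Cyp2c29, also a liver P450, gave 109, 55.1 and 352 in controls and 49.9, 173 and 71.0 after garlic. In both, as for Cyp2e1, control mouse 3 and garlic-fed mouse 2 had the highest signals, and neither passed the test, with log2 fold changes of 0.42 for Cyp3a11 and -0.59 for Cyp2c29 (adjusted p = 0.907 and 0.801, limma). Cyp2d9, a steroid hydroxylase of male liver that was under the reference on average and not tested, showed the same order with 24.9, 59.3 and 256 in controls and 6.9, 142 and 27.9 after garlic. Cyp2d10, Cyp2d26, Cyp3a25 and Cyp4a14 likewise had their highest 2 signals in these 2 mice, between 81.5 and 168, and not above 72.1 in any other mouse. These mice and genes were singled out after the values were seen. Of 64 phase I probe sets above the reference in both mice, 15 had their 2 highest signals there, or 23.4%. Over the whole array it was 1149 of 23982 such probe sets, or 4.79%.

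Most hepatocyte markers were highest in the same 2 mice. Albumin (Alb) gave 1383, 433 and 3830 in controls and 231, 4940 and 769 after garlic, and Ahsg, the gene of fetuin A, gave 9.0, 6.7 and 146 in controls and 20.1, 185 and 10.1 after garlic. Of the 7 hepatocyte genes with a probe set, 6 had their 2 highest signals in these mice, the exception being Tat. Over all probe sets above the reference in both mice, 4.79% had their 2 highest signals there. That condition was not set for the 7 hepatocyte genes. Fgb, at 67.7 in control mouse 3, and Tat, at 25.2 in garlic-fed mouse 2, did not meet it. As 1 mouse of each group is concerned, this pattern lies across the diets, and the part of liver RNA in the signals of these P450 genes was not tested. Fat markers were also uneven, with a summed signal of 10813 to 11358 in controls and of 20103, 21017 and 9050 after garlic. Their part in the Cyp2e1 signals of garlic-fed mice 1 and 2 was not tested. Without control mouse 3 and garlic-fed mouse 2, an alternative chosen after seeing the data, again 0 phase I probe sets passed the adjusted threshold in limma, and the log2 fold change of Cyp2e1 was 0.46.

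**Figure D3:**
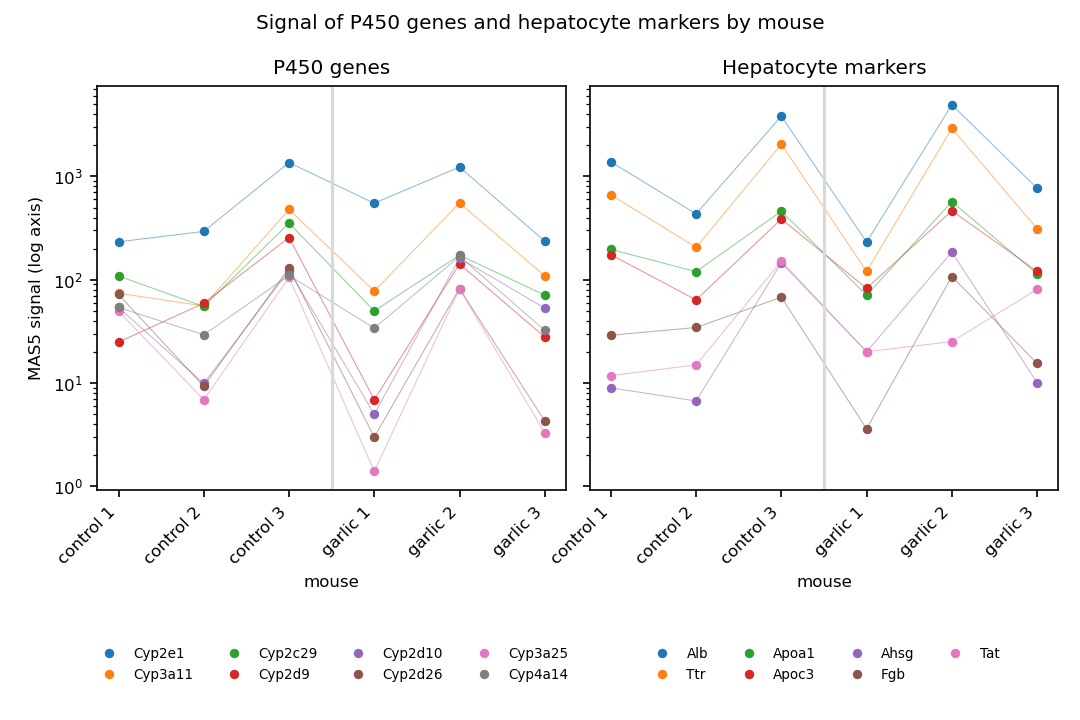
MAS5 signal (log axis) in each of the 6 mice of 8 P450 genes of the Cyp2, Cyp3 and Cyp4 families (left) and of 7 hepatocyte markers (right), with thin lines that only link the points of 1 gene. The P450 genes shown were picked after their values were seen, as examples in which control mouse 3 and garlic-fed mouse 2 stand highest. These 2 mice also stand highest for every marker but Tat, such as Alb at 3830 and 4940.

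The P450 genes of fatty acid and eicosanoid metabolism that were above the reference were Cyp4f18, Cyp4b1, Cyp4v3, Cyp4f16 and Cyp4f13. Cyp4b1, known for activating foreign compounds in lung, gave 572, 988 and 840 in controls and 1057, 1008 and 1208 after garlic. Every garlic-fed mouse was above every control mouse, although the lowest garlic-fed and the highest control mouse were close together. In log2 the difference was 0.48 with a standard error of 0.19 and an interval of 0.07 to 0.89, which did not pass after adjustment (unadjusted p = 0.0269, adjusted p = 0.378, limma). Without control mouse 1, the lowest, the difference was 0.26 (adjusted p = 0.781, limma). Cyp4f18, which inactivates leukotriene B4 in neutrophils, gave 1954 ± 450 in controls and 1734 ± 270 after garlic, with overlap (log2 fold change -0.16, adjusted p = 0.817). Cyp4f13, of the same family, gave 301, 398 and 436 in controls and 319, 215 and 299 after garlic, where 1 garlic-fed mouse was above 1 control mouse. Its log2 fold change was -0.45 with an interval of -0.90 to 0.00 (adjusted p = 0.462). The other 2, Cyp4v3 and Cyp4f16, had log2 fold changes of -0.09 and -0.11.

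Of the P450 genes of sterol and steroid metabolism, 6 were above the reference, 3 of them in every mouse. Cyp27a1, the mitochondrial sterol hydroxylase that macrophages use to clear cholesterol, gave 969 ± 72.5 in controls and 998 ± 70.1 after garlic. Here a log2 fold change of 0.04 had an interval of -0.21 to 0.29 (adjusted p = 0.932). Cyp39a1, an oxysterol hydroxylase, gave 239 ± 42.1 and 232 ± 17.9, and Cyp7b1, an oxysterol hydroxylase that lymphoid stroma uses to guide B cells, gave 229 ± 23.4 and 207 ± 35. Neither passed, with adjusted p-values of 0.967 and 0.830, and the groups of both overlap. Cyp46a1, Cyp21a1 and Cyp8b1 were above the reference on average but not in every mouse, while Cyp7a1, the rate-limiting enzyme of bile acid synthesis, and the steroidogenic Cyp11a1, Cyp11b1, Cyp11b2 and Cyp17a1 were under it.

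Of the P450 genes of vitamin A and D metabolism, Cyp26b1 and Cyp2r1 were above the reference on average but not in every mouse. Cyp26b1, which degrades retinoic acid, gave 134, 124 and 24.6 in controls and 177, 86.3 and 101 after garlic. Control mouse 3 was near the floor, and the groups overlap. Its log2 fold change of 0.64 had an interval of -0.68 to 1.96 (adjusted p = 0.763) and was -0.15 without that mouse. Cyp2r1, a vitamin D hydroxylase, gave 91.9 ± 12 and 88.5 ± 20.0. Cyp20a1, a P450 without a settled substrate, was above the reference in every mouse, with 1098 ± 236 and 924 ± 78.9 (log2 fold change -0.23, adjusted p = 0.650).

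The Aldh1a group, with the retinaldehyde dehydrogenases that make retinoic acid, included the gene with the smallest p-value. Aldh1a1 gave 1503, 1782 and 2138 in controls and 2331, 2383 and 3543 after garlic. Every garlic-fed mouse was above every control mouse, and garlic-fed mouse 3 was well above the others. The means were 1807 ± 318 and 2752 ± 685 (SD, n = 3 each). The log2 fold change was 0.59 with a standard error of 0.18 and an interval of 0.20 to 0.99, and it did not pass after adjustment over the array (unadjusted p = 0.00698, adjusted p = 0.229, limma). Over the alternatives its log2 fold change stayed between 0.40 and 0.81, with an adjusted p of 0.0280 to 0.767, the lowest being that of the fit with the replicate number as a block. Aldh1a7, a close relative of Aldh1a1 found in rodents, gave 212, 289 and 315 in controls and 304, 363 and 511 after garlic. The groups overlap by 1 mouse, and garlic-fed mouse 3 was again the highest. Its log2 fold change was 0.52 with an interval of 0.02 to 1.01 (adjusted p = 0.436), and it was 0.31 without garlic-fed mouse 3. Aldh1a2 and Aldh1a3, which make retinoic acid in the embryo, gave log2 fold changes of -0.05 and -0.20 (adjusted p = 0.965 and 0.819), with overlap.

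Garlic-fed mouse 3 was also the highest for markers of erythroid precursors. The summed signal of 5 such genes was 16800, 16485 and 20986 in controls and 23816, 24093 and 35561 after garlic. Of the 5, 4 were higher in garlic-fed mice without overlap, against 7.52% of all probe sets tested. Only Kel, the gene of the Kell blood group protein, passed the adjusted threshold. Its log2 fold change was 1.40, with a standard error of 0.19 and an adjusted p of 0.0243 in limma. Rhag, Klf1 and Gata1 did not pass (adjusted p = 0.0981, 0.119 and 0.143, limma). Alas2, the brightest of the 5, overlapped between the groups (log2 fold change 0.20, adjusted p = 0.683). The same mouse was the highest for each of 5 neutrophil markers. Their summed signal was 15812, 17911 and 14078 in controls and 16558, 19079 and 22850 after garlic. The parts of erythroid cells and of neutrophils in the Aldh1a1 and Aldh1a7 signals were not tested.

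Because Aldh1a1 and Aldh1a7 lie on the same chromosome and both had positive log2 fold changes in all alternatives tried, their promoters are shown as RefSeq gives them on GRCm38.p6. The Aldh1a1 window, 1 of 2 listed for that gene, is chr19:20601718-20602017 on the + strand and the Aldh1a7 window is chr19:20727507-20727806 on the - strand. Capitals mark a stretch of 160 bases without gaps in which 152 bases, or 95%, are identical.
Aldh1a1: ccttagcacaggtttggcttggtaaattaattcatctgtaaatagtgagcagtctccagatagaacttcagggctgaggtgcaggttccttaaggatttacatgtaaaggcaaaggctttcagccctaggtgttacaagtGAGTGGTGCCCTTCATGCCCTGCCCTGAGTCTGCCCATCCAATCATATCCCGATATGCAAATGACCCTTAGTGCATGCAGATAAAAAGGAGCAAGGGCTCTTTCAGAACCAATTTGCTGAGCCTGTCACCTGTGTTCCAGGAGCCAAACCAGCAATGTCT
Aldh1a7: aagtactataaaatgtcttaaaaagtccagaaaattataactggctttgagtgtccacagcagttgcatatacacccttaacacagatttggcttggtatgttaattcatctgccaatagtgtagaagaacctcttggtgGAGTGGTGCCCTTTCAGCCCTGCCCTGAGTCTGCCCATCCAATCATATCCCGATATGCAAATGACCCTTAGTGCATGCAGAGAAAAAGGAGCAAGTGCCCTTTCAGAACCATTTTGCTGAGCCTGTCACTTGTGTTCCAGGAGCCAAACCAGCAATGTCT
The 2 stretches differ at 8 bases. Genes this closely related can also be alike in the part their probe sets read, so the 2 signals are not sure to be independent.

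Of the other aldehyde dehydrogenases, 13 were tested, 4 with a positive and 9 with a negative log2 fold change, and their median was -0.04. Aldh2, the mitochondrial enzyme that clears acetaldehyde, gave 3964 ± 287 in controls and 3985 ± 309 after garlic. Its log2 fold change of 0.01 had an interval of -0.20 to 0.22 (adjusted p = 0.988). Its 5 probe sets gave log2 fold changes between -0.19 and 0.39. Aldh9a1, which acts on aminoaldehydes, gave 3792 ± 218 and 3551 ± 551 (log2 fold change -0.11, adjusted p = 0.810). Aldh1b1, a mitochondrial relative of Aldh2, gave 181.4, 181.2 and 237.6 in controls and 175.9, 124.2 and 124.9 after garlic. The groups do not overlap, but the highest garlic-fed mouse was close to the lowest control mice. In log2 the difference was -0.51 with an interval of -1.0 to -0.01 (unadjusted p = 0.0475, adjusted p = 0.449, limma), and it was between -0.67 and -0.29 over the alternatives. Aldh16a1 did not overlap either, with 744 ± 10.2 and 671 ± 74.3 (log2 fold change -0.16, adjusted p = 0.710), but its other tested probe set did (log2 fold change -0.12). Enzymes of amino acid metabolism were also in this group, such as Aldh18a1 of proline synthesis with a log2 fold change of -0.02, Aldh4a1 of proline breakdown with 0.21, Aldh7a1 of lysine breakdown with -0.09 and Aldh6a1 of valine breakdown with -0.31. None of these passed the test (adjusted p = 0.973, 0.679, 0.857 and 0.565).

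Both quinone reductases, which reduce quinones without releasing radicals, were above the reference in every mouse. Nqo1 gave 193, 257 and 214 in controls and 307, 235 and 323 after garlic. Of the garlic-fed mice, 2 were above all control mice and the other lay among them. The log2 fold change was 0.38 with a standard error of 0.19 and an interval of -0.05 to 0.80 (unadjusted p = 0.0759, adjusted p = 0.513, limma). Nqo2 gave 300 ± 47.4 in controls and 324 ± 60.9 after garlic (log2 fold change 0.11, adjusted p = 0.891).

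**Figure D4:**
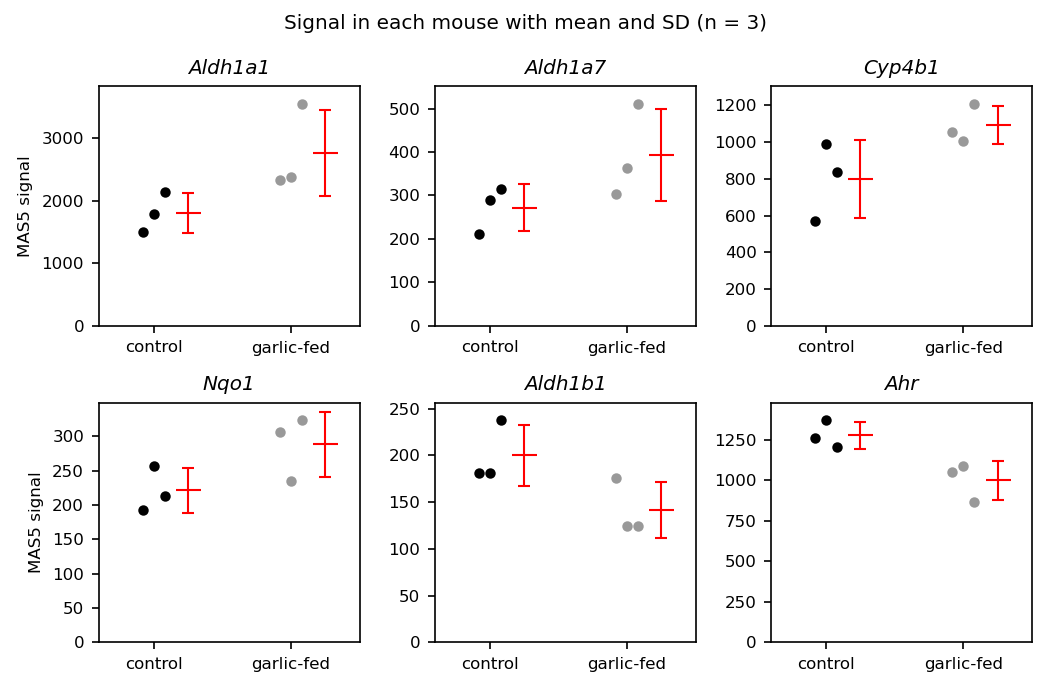
MAS5 signal (linear axis from 0) of Aldh1a1, Aldh1a7, Cyp4b1, Nqo1, Aldh1b1 and Ahr in each control mouse (black) and garlic-fed mouse (gray), with the mean and SD (n = 3) in red beside the points. The groups do not overlap for Aldh1a1, Cyp4b1, Aldh1b1 and Ahr, and garlic-fed mouse 3 is the highest point for Aldh1a1 at 3543 and for Aldh1a7 at 511.

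Ephx1, the microsomal epoxide hydrolase that opens epoxides made by P450s, gave 2539 ± 77.9 in controls and 2376 ± 137 after garlic. Its log2 fold change was -0.10 with an interval of -0.29 to 0.10 (adjusted p = 0.761). Ephx2, the soluble enzyme that hydrolyzes epoxides of fatty acids, gave 350 ± 107 and 320 ± 21.7, with overlap (log2 fold change -0.09, adjusted p = 0.919), while Ephx3 and Ephx4 were under the reference. Of the flavin-containing monooxygenases, which oxidize nitrogen and sulfur, Fmo1 gave 193 ± 42.1 and 200 ± 39 (log2 fold change 0.06, adjusted p = 0.954). Fmo5 gave 148, 153 and 129 in controls and 156, 222 and 161 after garlic. These do not overlap, yet the log2 fold change of 0.31 did not pass (adjusted p = 0.661) and was 0.15 without garlic-fed mouse 2, and the 3 probe sets of Fmo5 ranged from -0.38 to 0.31. In all, 13 phase I genes had several tested probe sets, and for 7 of them these gave log2 fold changes of both signs.

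The partners and regulators of these enzymes were described from a list of 48 genes, of which 41 had a probe set of a single gene and 33 were tested in limma. None passed the adjusted threshold, and at an unadjusted p under 0.05, 2 were higher and 1 was lower, where 5.58% and 5.44% of all probe sets were. The cytochrome P450 reductase gene Por was not analysed here. Cyb5a, the gene of cytochrome b5, which passes electrons to P450s and also reduces methemoglobin in red cells, gave 4501, 5506 and 5886 in controls and 6105, 6393 and 7461 after garlic. All garlic-fed mice were above all control mice. The log2 fold change was 0.33 with a standard error of 0.12 and an interval of 0.08 to 0.59 (unadjusted p = 0.0164, adjusted p = 0.310), the difference was 0.22 without control mouse 1, and the part of the erythroid markers in it was not tested. Ahr gave 1258, 1370 and 1204 in controls and 1049, 1090 and 865 after garlic. All garlic-fed mice were below all control mice, with a log2 fold change of -0.36, a standard error of 0.12 and an interval of -0.63 to -0.09 (unadjusted p = 0.0147, adjusted p = 0.301, limma). For Tiparp, a target of Ahr, the log2 fold change was 0.02 (adjusted p = 0.972). Nfe2l2 gave 2762 ± 297 in controls and 3074 ± 31.7 after garlic (log2 fold change 0.16, adjusted p = 0.606), and Keap1, which holds Nrf2 back, gave 1244 ± 69.6 and 1243 ± 114 (adjusted p = 0.993). The remaining gene with an unadjusted p under 0.05 was Pparg, a fatty acid receptor of fat cells and macrophages, named after its value was seen, with 260 ± 63.4 and 409 ± 73.5, overlapping groups and a log2 fold change of 0.66 (adjusted p = 0.260). The xenobiotic receptors Nr1i2 and Nr1i3, the Ahr repressor Ahrr, and Ppara, Hnf4a and Nr1h4 were too dim to be tested.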

How the data were processed

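Spleen RNA of 3 control and 3 garlic-fed mice was measured on 1 Affymetrix array each. The deposited values are intensity values, MAS5 signals on a linear scale made by the authors. A trimmed mean of 500 with 2% left out at each end was read from the values, and the MAS5 version and scaling are not given in the sources used here. Of 45101 rows, 64 array controls were left out. Names came from the annotation of the array, and all 101 phase I genes matched a RefSeq gene. The floor of 23.5 was the 20th percentile of all signals, and the filter of 6.08 was the 40th percentile of mean log2 signal. The fit used lmFit and eBayes (trend = TRUE) of limma 3.58.1, run in R 4.3.3. The procedure was tested on simulated data with planted changes larger than any of the phase I genes. The recovery of changes as small as theirs was not tested. Tables and figures were made with pandas 2.3.3 and matplotlib 3.10.9 in Python 3.11.15.

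The members and all gene lists were chosen with earlier results of these data known. Named are the genes past the adjusted threshold or the study's criterion, those with an unadjusted p under 0.05 and no overlap, the 2 brightest of each role group, Cyp1a1, Cyp1a2, Cyp1b1, Cyp2e1 and Nqo1, and by the same limits the partners and regulators, with Por, Ahr and Nfe2l2 in any case. Other genes are given as examples chosen after their values were seen. The alternatives were quantile normalization, median centring, other floors and filters, no trend of variance, the methods' one-way comparison, the replicate number as a block, averaging over the probe sets of a gene, other reference levels, leaving out each array, and leaving out control mouse 1 and garlic-fed mouse 2, or control mouse 3 and garlic-fed mouse 2, the latter chosen after seeing the data. The study's other assays were not used here.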

Additional observations from a re-analysis of the deposited data

How the results depend on the processing

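No phase I probe set passed the adjusted threshold in either direction under any alternative, except with the replicate block. There 1 was higher, that of Aldh1a1 (log2 fold change 0.59, adjusted p = 0.0280, limma). With the block 270 of the 27022 probe sets tested were higher, against 61 without it. Same-numbered mice were not seen to deviate together from their group means, with correlations of -0.176 to 0.0781. For mice with different numbers the correlations were -0.154 to 0.159. The labels give only a replicate number, and correlations around means of 3 mice cannot decide whether the numbers pair the mice. By the study's criterion 1 was lower with no filter (Aldh5a1, against 336 of 45037 probe sets over the array), 1 was lower without control mouse 3 and garlic-fed mouse 2 (Cyp2c38, against 203 of 27022), and when single mice were left out 0 to 1 were higher, the 1 being Cyp2f2 without garlic-fed mouse 1 (against 326 of 27022). The median log2 fold change was 0.015 with arrays centred on their medians, against 0.05 over all genes, and 0 with no filter, against -0.0161. Between 44 and 53 genes were above the reference. Of 426 alternatives for 24 single genes, 397 kept direction and side of the threshold, and 28 reversed. Leaving out single mice gave -0.33 to 1.055 for Cyp2e1, -0.13 to 0.19 for Fmo1, -0.23 to 0.15 for Ephx2, -0.0533 to 0.0581 for Aldh2, -0.197 to 0.0257 for Aldh9a1, -0.0429 to 0.229 for Nqo2, -0.0181 to 0.0885 for Cyp27a1, -0.14 to 0.10 for Cyp39a1, -0.15 to 1.07 for Cyp26b1 and -0.247 to 0.035 for Cyp2r1. Quantile normalization gave -0.0132 for Aldh2, 0.0075 for Cyp39a1 and 0.0146 for Cyp2r1, and median centring gave 0.0434 for Cyp39a1 and 0.0096 for Cyp2r1. Without control mouse 1 and garlic-fed mouse 2 together, Cyp2e1 was at -0.81 and Cyp2r1 at 0.0328, and without control mouse 3 and garlic-fed mouse 2, Ephx2 was at 0.20 and Cyp39a1 at 0.12. The mean of its probe sets gave -0.0928 for Fmo5. The cause of these shifts was not tested, and the number of arrays limits them all.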
